A study of Mus musculus with 6 samples.

Results

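The Kruppel-like factor genes Klf2, Klf3, Klf4, Klf6, Klf7, Klf9, Klf10, Klf11, Klf13 and Klf16 were followed across neutrophils sorted from mouse lung. They are 10 of the 55487 genes in the deposited count table, and all 10 passed the filter on low counts that left 15774 genes for testing. The members were chosen by name with their levels and their mutant against wt differences in these same libraries already known, that of Klf2 in particular, so those values are described here and support nothing further. The 3 mutant libraries came from Mrp8-Cre;TGFbR2-fl/fl mice, which carry loxP-flanked Tgfbr2 and a Cre transgene with EGFP under the S100A8 (Mrp8) promoter, active in the myeloid lineage. The 3 wt libraries came from Cre-negative TGFbR2-fl/fl littermates, which carry the same loxP-flanked alleles, so that mutants and controls differ in the transgene as well as in Tgfbr2. The targeted gene, Tgfbr2, is the type II TGF-beta receptor. The design gives 3 mice per group, but the labels do not tie a library to a single mouse, so a p-value here reflects only how far these libraries spread. The sources used here do not give the age or sex of the mice.

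Library totals ran from 30403494 to 35906780 counts. Neutrophil markers were present, given in CPM, the count rescaled by library size with TMM factors. Csf3r was at 7689 to 9233 CPM, S100a8 at 966 to 1752 CPM and Ly6g, the antigen used for the sort, at 14.4 to 35.2 CPM. Ly6g lay above the T cell and NK cell markers listed but below others, such as the endothelial Cldn5 at 316 to 416 CPM. All 10 neutrophil markers had counts in every library, the lowest being Camp at 0.826 to 3.32 CPM. The 10 markers summed to 15680 to 21000 CPM in mutants and 18430 to 19990 CPM in wt. Of their log2 fold changes 7 of 10 were below 0 (49.3% of all tested genes). For 2 of them, S100a8 and Cxcr2, mutants lay below wt without overlap (6.21% of all genes). By edgeR 0 were called and 2 were lower at an unadjusted p under 0.05 (3.22% of all genes), and DESeq2 called 2 lower (0.469%). Tgfbr2 itself was at 176, 205 and 181 CPM in mutant replicates 1 to 3 and at 186, 185 and 201 CPM in wt replicates 1 to 3. Its counts pool all exons, including those outside the loxP sites, so this value does not check the deletion.

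Kruppel-like factors are transcription factors that bind GC-rich and CACCC-type DNA boxes through a run of zinc fingers near their carboxyl end. They differ mainly in the part outside the fingers: Klf2, Klf4, Klf6 and Klf7 belong to a branch known largely for activation, Klf3 recruits the corepressor CtBP, and Klf9, Klf10, Klf11, Klf13 and Klf16 carry a segment that recruits the corepressor SIN3A. In myeloid cells Klf2 is known to restrain inflammatory activation and Klf4 to promote monocyte differentiation. Klf10 and Klf11 were first described as genes induced early by TGF-beta. Klf2 and Klf4 are also known for high expression in endothelium under flow, which bears on any lung preparation.

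The stretch of 250 bases before RefSeq's transcription start is shown for Klf2, Klf3 and Klf13, the members whose mutant libraries all lay below all wt libraries. Sequences are RefSeq's on GRCm38.p6, 5′ to 3′ on the gene's strand, and 8 of the 10 members matched an entry, Klf10 and Klf16 being without one. Capitals mark matches to CTA and TAG with any 4 bases between them (the motif of MEF2 factors), CACCC (bound by KLF proteins) and GGGCGG (bound by SP proteins), each searched on both strands, and adjoining or overlapping matches run together as a single block of capitals.
Klf2: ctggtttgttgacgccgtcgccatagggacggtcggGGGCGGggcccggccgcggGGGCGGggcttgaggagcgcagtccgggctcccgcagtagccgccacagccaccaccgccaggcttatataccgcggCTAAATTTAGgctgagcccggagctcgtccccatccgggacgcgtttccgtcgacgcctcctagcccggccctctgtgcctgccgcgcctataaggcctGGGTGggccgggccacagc
Klf3: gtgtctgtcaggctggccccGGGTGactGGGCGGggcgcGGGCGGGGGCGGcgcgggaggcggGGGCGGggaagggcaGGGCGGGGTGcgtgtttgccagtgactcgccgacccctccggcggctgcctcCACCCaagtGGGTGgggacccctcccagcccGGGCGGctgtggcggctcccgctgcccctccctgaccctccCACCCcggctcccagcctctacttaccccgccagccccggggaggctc
Klf13: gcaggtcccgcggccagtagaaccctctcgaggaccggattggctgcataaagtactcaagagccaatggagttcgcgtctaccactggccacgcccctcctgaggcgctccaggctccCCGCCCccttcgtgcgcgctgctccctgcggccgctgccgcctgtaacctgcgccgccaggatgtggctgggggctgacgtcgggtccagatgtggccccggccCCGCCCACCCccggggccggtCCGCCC
The Klf2 stretch is chr8:72318812-72319061 on the plus strand, the Klf3 stretch chr5:64803271-64803520 on the plus strand and the Klf13 stretch chr7:63938916-63939165 on the minus strand. The gene coordinates given further on come from the deposited counts, whose gene starts lie upstream of RefSeq's for Klf2 and Klf3. By those coordinates 29 bases of the Klf2 stretch and 133 of the Klf3 stretch fall inside the gene, and 0 of the Klf13 stretch.

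Motifs were counted in the full window of 300 bases, from 250 before to 50 after the start. Klf2 held 1 match to the MEF2 motif, which begins 118 bases before the start and reads CTAAATTTAG, and the other 7 members searched held 0. Of all 32851 promoters of that length 3.69% held such a match. CACCC was found 5 times in Klf3, 3 times in Klf7 and 1 time each in Klf2, Klf9 and Klf13, and not in Klf4, Klf6 or Klf11. Of all promoters 57.5% had at least 1 match. GGGCGG was found 6 times in Klf3, 4 times each in Klf4 and Klf11, 3 times in Klf13 and 2 times in Klf2. It was found 1 time each in Klf6 and Klf7 and not in Klf9, where 35.7% of all promoters held it. None of the 8 windows held TGACGTCA, the CREB motif (1.79% of all promoters), or the form of the SRF motif searched (0.0639%). CAGACA, which SMAD proteins can bind, was found once in Klf3 and in 0 of the other 7 windows (21% of all promoters, with both strands searched for each motif). A match is a description of these letters and not of binding.

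Levels between genes were compared per length, as RPKM (CPM per kilobase of summed exon). Klf6, a zinc finger activator induced by injury and inflammatory signals, was the highest member at 193 ± 14.6 RPKM in wt and 179 ± 13.5 in mutants (SD, n = 3 each). It made up 46.6% to 53.5% of the summed RPKM of the 10 genes in every library. In wt Klf2 was second at 63.1 ± 8.07 RPKM, followed by Klf13 at 47.5 ± 7.16, Klf3 at 42.5 ± 5.23 and Klf10 at 24.5 ± 0.897 RPKM. The lower members were Klf11 at 9.24 ± 2.66, Klf7 at 7.81 ± 0.513, Klf4 at 5.93 ± 1.197, Klf9 at 3.89 ± 0.0569 and Klf16 at 1.54 ± 0.104 RPKM. Among neighbours in this order the wt libraries overlapped for Klf13 and Klf3 and for Klf11 and Klf7, so these pairs are not ordered beyond their spread. In mutants Klf2 stood at 36.2 ± 6.27 RPKM, beside Klf13 at 36.5 ± 0.804 and Klf3 at 35.5 ± 1.91 RPKM. Their libraries overlapped. Within a library Klf2 per length was 1.34, 1.13 and 1.55 times Klf13 in wt replicates 1 to 3 and 1.11, 1.07 and 0.802 times in mutant replicates 1 to 3. Against Klf3 it was 1.49, 1.35 and 1.62 times in wt and 1.10, 1.10 and 0.854 times in mutants. Klf2 thus led both genes in all 3 wt libraries and, by less, in mutant replicates 1 and 2, and lay below both in mutant replicate 3.

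**Figure D1:**
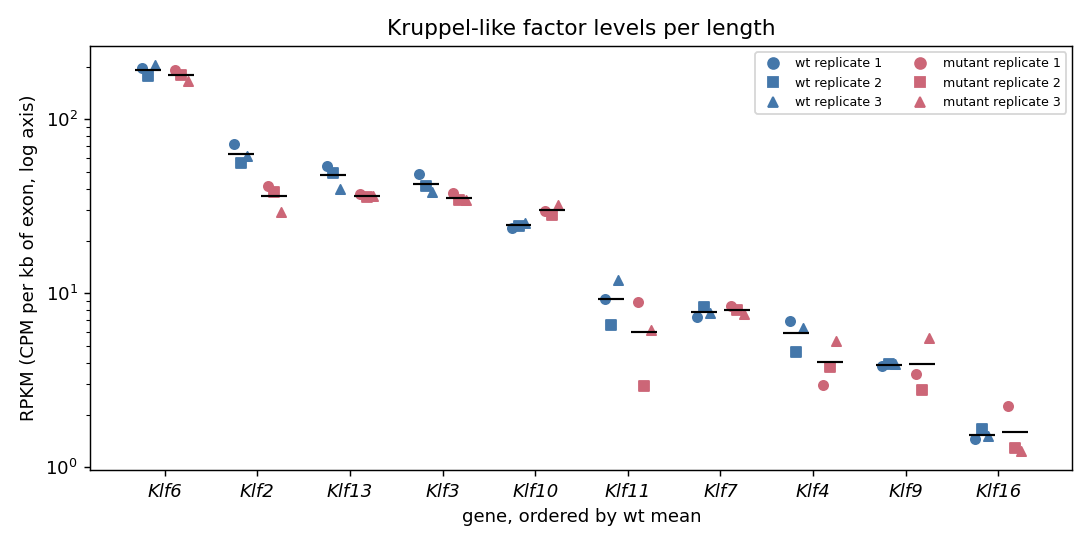
Levels of the 10 genes per length in each library, as RPKM on a log axis, in the order of the wt means. Blue marks are wt and red marks mutant libraries, marker shapes are replicates 1 to 3 and black lines are group means. Klf6 lies far above the rest, and Klf2 is second in wt but overlaps Klf13 and Klf3 in mutants.

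The length used pools every annotated exon, which lowers the RPKM of genes with long alternative exons such as Klf3 (11243 bases in 8 merged exons) against compact genes such as Klf2 (1847 bases in 3 merged exons). Klf7 shares 3196 of its 8131 exon bases with Gm26649 on the opposite strand, which had 0 CPM. SMART-Seq v2 does not mark strand, and with Gm26649 at 0 CPM reads over that overlap were not counted for it. They may have gone to Klf7 or to neither gene, so the level of Klf7 is uncertain. The overlaps of Klf3 with Gm20033 (404 bases) and of Klf7 with Gm13748 (4 bases) involve genes at 0.19% and 0.34% of the member's own CPM. In the annotated transcripts 8 of the 10 members shared no run of 75 bases with another gene. The exceptions were Klf3 with 2.88% of its runs and Klf7 with 37.6%, all of the latter shared with Gm26649.

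Klf2 (ENSMUSG00000055148.7, plus strand of chromosome 8, 72319033 to 72321656 in GRCm38) had 2761, 2076 and 1754 counts in mutant replicates 1 to 3 and 4040, 3127 and 3642 in wt replicates 1 to 3. Scaled, it was at 76.3, 70.3 and 53.9 CPM in mutants and at 133, 103 and 114 CPM in wt. The lowest wt library lay above the highest mutant library. The mean was 66.9 ± 11.6 CPM over the mutant and 117 ± 14.9 CPM over the wt libraries (SD, n = 3 per group), which puts wt 1.74-fold above mutant. On the log2 scale this is -0.80, with an SE of 0.16 and a 95% interval of -1.15 to -0.46. It did not pass over all genes by edgeR's quasi-likelihood test (adjusted p = 0.263). Nor did it pass by limma-voom's test (adjusted p = 0.158). By edgeR the adjusted p was 0.264 with DESeq2's size factors, 0.28 with library totals alone and 0.263 with a prior count of 2. DESeq2's Wald test gave an adjusted p of 0.000456, and edgeR gave 0.0456 when only genes averaging 10 CPM or more entered (it then called 0.0579% of 6910 genes lower and 0.203% higher) and 0.00595 with no filter on low counts. With each library left out in turn edgeR's adjusted p was 0.23 to 0.666 and the log2 fold change -0.91 to -0.67.

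The ratio of Klf2 to Klf6 within a library does not depend on how libraries are scaled. Per length it was 0.214, 0.213 and 0.176 in mutant replicates 1 to 3 and 0.365, 0.317 and 0.302 in wt replicates 1 to 3. The groups did not overlap in this ratio. The ratio to Klf4, at 13.9, 10.1 and 5.48 in mutants and 10.4, 12.2 and 9.81 in wt, overlapped. Klf2 made up 11.3%, 11.4% and 9.02% of the summed RPKM of the 10 genes in mutants and 17%, 15% and 15.4% in wt. Between replicates of a group the SD of log2 CPM was 0.23 for Klf2, beside a median of 0.20 over the 6910 tested genes averaging 10 CPM or more.

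**Figure D2:**
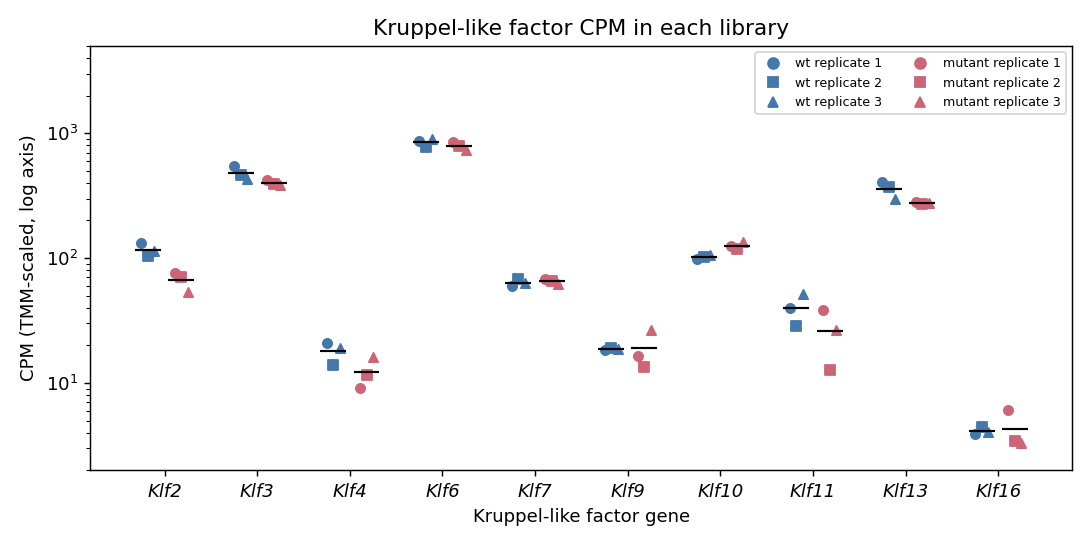
CPM of the 10 genes in each of the 6 libraries, on a log axis. Blue marks are wt and red marks mutant libraries, marker shapes are replicates 1 to 3 and black lines are group means. All 3 mutant libraries lie below all wt libraries for Klf2, Klf3 and Klf13 and above them for Klf10.

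Among the other members of the activating branch, Klf4 (chromosome 4, 55527143 to 55532466) was at 9.09, 11.5 and 16.2 CPM in mutant replicates 1 to 3 and at 21.1, 14.002 and 19.2 CPM in wt replicates 1 to 3. Mutant replicate 3 lay above wt replicate 2, so the groups overlapped, and the log2 fold change was -0.56 with a 95% interval of -1.13 to 0.02. Among wt libraries Klf4 and Klf2 had the same order, highest in replicate 1 and lowest in replicate 2. Among mutants the order was reversed, replicate 3 having the lowest Klf2 and the highest Klf4. Klf6 (chromosome 13, 5861482 to 5870394) was at 848, 784 and 729 CPM in mutants and at 865, 774 and 897 CPM in wt. The groups overlapped, and the interval of its log2 fold change was -0.32 to 0.11. Klf7 (chromosome 1, 64029447 to 64122282) was at 62.0 to 68.4 CPM in mutants and 59.6 to 67.9 CPM in wt. It gave a log2 fold change of 0.04 and an interval of -0.22 to 0.30.

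Klf3 (chromosome 5, 64803388 to 64832901), the CtBP-recruiting repressor, was at 424, 389 and 385 CPM in mutant replicates 1 to 3 and at 542, 465 and 427 CPM in wt replicates 1 to 3. The groups touched but did not overlap, wt replicate 3 lying just above mutant replicate 1. The log2 fold change was -0.26 (SE 0.11), and it was -0.16 without wt replicate 1, the highest library.

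Of the SIN3A-recruiting members, Klf13 (chromosome 7, 63886351 to 63938915), known as a regulator of the chemokine gene Ccl5 in lymphocytes, was at 281, 269 and 274 CPM in mutant replicates 1 to 3 and at 404, 372 and 299 CPM in wt replicates 1 to 3. The mutants were tightly grouped and all lay below the lowest wt library, with a log2 fold change of -0.38 and a standard error of 0.12. Klf10 (chromosome 15, 38291463 to 38300706), the TGF-beta-inducible early gene, went the other way. It was at 125, 117 and 134 CPM in mutants and at 99.03, 102 and 106 CPM in wt, a 1.22-fold ratio of mutant over wt with a log2 fold change of 0.29 and a standard error of 0.11. Its replicates were the closest of the 10 members, with an SD of log2 CPM of 0.08 within groups.

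Klf11 (chromosome 12, 24651274 to 24662789), the second TGF-beta-inducible gene, had the widest spread of the members, with an SD of log2 CPM of 0.65 within groups. It was at 38.6, 12.8 and 26.6 CPM in mutant replicates 1 to 3 and at 40.1, 28.6 and 51.6 CPM in wt replicates 1 to 3. Mutant replicate 2 stood lowest, and the log2 fold change of -0.62 became -0.30 without that library and -1.03 without mutant replicate 1. Klf9 (chromosome 19, 23141226 to 23168134), induced by glucocorticoids and thyroid hormone, was at 16.6, 13.4 and 26.8 CPM in mutants and at 18.4, 19.0 and 18.8 CPM in wt. The wt libraries agreed closely while the mutants spread on both sides of them, and the log2 fold change of 0.02 became -0.32 without mutant replicate 3. Klf16 (chromosome 10, 80567124 to 80577321) was the lowest member, at 3.32 to 6.03 CPM in mutants and 3.88 to 4.43 CPM in wt. Its log2 fold change of 0.05 became -0.28 without mutant replicate 1, the highest library.

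Over the family 0 of the 10 members were called by edgeR at an adjusted p under 0.05 (adjusted p 0.263 to 0.998), where 0.00634% of all tested genes were called, 1 gene in all. DESeq2 called 1 member lower, Klf2, where it called 0.469% of genes lower and 0.514% higher. By edgeR at an unadjusted p under 0.05, 3 members were lower and 1 was higher, beside 3.22% and 3.51% of all genes. The groups did not overlap for 3 members with mutants below wt (6.21% of all genes) and for 1 with mutants above (6.82%). In all, 6 log2 fold changes were below 0 (49.3% of all genes) and 4 above (50.7%), with a median of -0.18, where the median over all tested genes was 0.01. The members' median was -0.29 without mutant replicate 1 and -0.12 without wt replicate 1. These counts come from the contrast known when the members were listed, so nothing is read from them beyond the values. Summed over the 10 genes, the level was 1892, 1736 and 1711 CPM in mutants and 2186, 1950 and 2000 CPM in wt.

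**Figure D3:**
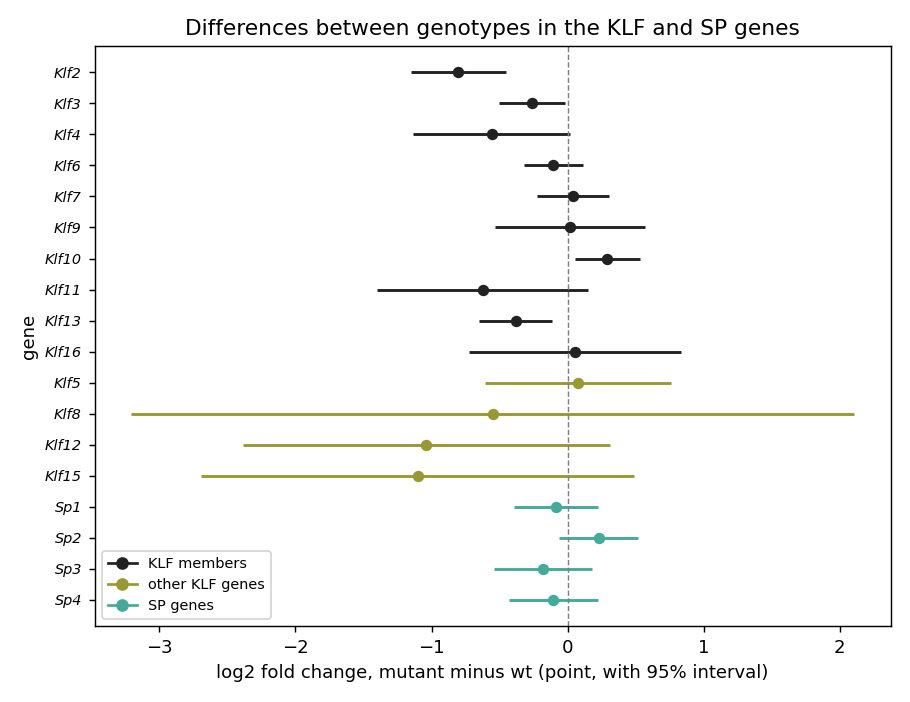
Log2 fold change of mutant against wt (points) with its 95% interval (lines) for the 10 members in black, the other tested KLF genes in olive and the tested SP genes in green. The intervals of Klf2, Klf3 and Klf13 lie below 0 and that of Klf10 above 0 before adjustment, and the rarely counted Klf8, Klf12 and Klf15 have the widest intervals.

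The remaining KLF genes were scarce in these cells, although Klf5 averaged above the member Klf16 in both groups. Klf5, an activator known from epithelium, was at 5.69 to 9.12 CPM in mutants and 4.95 to 7.52 CPM in wt. Klf15, a metabolic regulator induced by glucocorticoids, was at 0.608, 2.00 and 4.12 CPM in mutants and at 9.26, 3.24 and 1.94 CPM in wt. The groups overlapped, and wt replicate 1 stood far above the rest. Klf12, a CtBP-recruiting repressor like Klf3, was at 0.615 to 1.32 CPM in mutants and 1.38 to 3.09 CPM in wt, and Klf8 at most at 1.26 CPM. The erythroid factor Klf1 was at most at 0.111 CPM, and Klf14 and Klf17 had no count in any library, where 3 counts would be 0.0829 to 0.102 CPM. Of the related SP genes, which bind the same GC boxes, Sp1, Sp2, Sp3 and Sp4 were tested. Their log2 fold changes ran from -0.18 for Sp3 to 0.23 for Sp2, and the groups overlapped for all 4. Of these 8 KLF and SP genes 0 were called by edgeR or DESeq2, and 0 had an unadjusted p below 0.05 in edgeR.

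The genes whose profile over the 6 libraries lay nearest to that of Klf2 were found by Euclidean distance of log2 CPM centred on each gene's mean, among the 6668 tested genes that averaged 10 CPM or more and carried an established symbol rather than a clone or predicted-gene name. They were Cux1, a homeodomain factor (distance 0.265), Lonrf1, a RING finger protein (0.298), Rnd1, a regulator of the actin cytoskeleton (0.352), Chsy1, a chondroitin synthase (0.365), and Rrnad1 (0.4). Rnd1 was at 39.7, 38.1 and 35.002 CPM in mutant replicates 1 to 3 and at 69.6, 50.8 and 54.1 CPM in wt replicates 1 to 3, the same order of libraries within each group as for Klf2. Lonrf1 was at 27.1, 22.02 and 18.4 CPM in mutants and at 38.1, 38.3 and 37.0 CPM in wt. Within the family Klf13 (0.722) and Klf3 (0.764) lay nearest to Klf2 and Klf10 (1.46) farthest. Counted among those 6668 genes, Klf13 would rank 210 and Klf3 322.

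**Figure D4:**
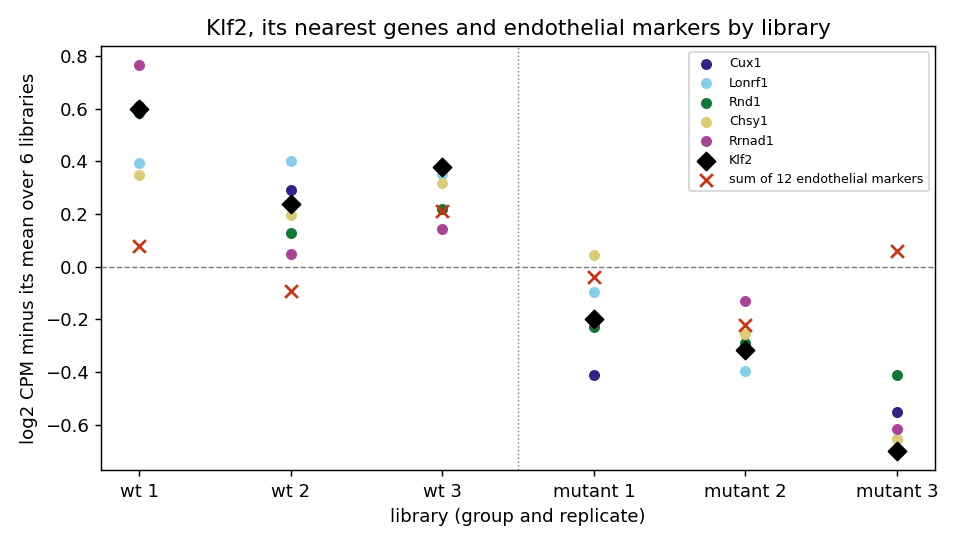
Log2 CPM of Klf2 (black diamonds), its 5 nearest genes (dots) and the summed CPM of 12 endothelial markers (red crosses) in each library, each centred on its own mean over the 6 libraries. Klf2 and its nearest genes are high in the 3 wt libraries, and the endothelial sum lies below its mean in mutant replicates 1 and 2 and wt replicate 2 and above it in the others.

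Endothelial RNA was present in these libraries, and Klf2 is a known endothelial gene. All 12 endothelial markers had counts in every library, led by Cldn5 at 316 to 416 CPM, Plvap at 300.3 to 389 CPM and Cav1 at 237 to 315 CPM. Their sum was 2059, 1817 and 2205 CPM in mutant replicates 1 to 3 and 2233, 1983 and 2453 CPM in wt replicates 1 to 3, which overlap. Among wt the lowest sum and the lowest Klf2 fell in the same library, replicate 2, and among mutants the highest sum and the lowest Klf2 did, in replicate 3. All 12 log2 fold changes were below 0 (49.3% of all genes), with a median of -0.13 against -0.80 for Klf2, and 0 had an unadjusted p under 0.05 by edgeR or were called by DESeq2. The part of endothelial RNA in the Klf2 values was not tested. In bulk RNA fewer cells of a type and less RNA per cell cannot be told apart.

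Other cell types that express KLF genes were also traced. T cell markers summed to 25.2 to 32.2 CPM in mutants and 25.6 to 39.1 CPM in wt, with 8 of 12 tested members below 0 (49.3% of all genes), and NK cell markers to 20.7 to 33.7 and 24.4 to 41.4 CPM, with 5 of 7 below 0. Monocyte markers summed to 6345 to 6969 and 4702 to 6594 CPM, with 5 of 10 above 0, and most of that sum was Nr4a1, at 5452 to 6020 and 3709 to 5546 CPM, which is also an immediate early gene. B and plasma cell markers summed to 468 to 488 CPM in mutants and 301 to 509 CPM in wt, with 8 of 10 above 0. Most markers were also above 0 (50.7% of all genes) for alveolar macrophages (10 of 10, 625 to 1279 against 356 to 567 CPM), epithelial cells (9 of 11, 542 to 1004 against 269 to 550 CPM) and fibroblasts (8 of 9, 645 to 1124 against 539.9 to 626 CPM). For these 3 cell types in turn, 3, 6 and 5 markers were higher at an unadjusted p under 0.05 by edgeR (3.51% of all genes), with 0 called. Mutants lay above wt without overlap for 3, 5 and 4 (6.82%), and DESeq2 called 0, 2 and 1 higher (0.514%). Below wt without overlap lay 1 epithelial marker (6.21%). For B and plasma cell markers each of these counts was 0. In mutants most of the alveolar macrophage sum was Chil3, at 372 to 999.6 CPM against 162 to 319 CPM in wt. The epithelial sums overlapped between groups. None of the markers on these lists was at 0 in all 6 libraries. The part of these cells in the values of Klf10, the member higher in mutants, and of the lower members was not tested.

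Genes that act on KLF genes and proteins were read from the same fit, and 0 were called by edgeR. The list for the pathway upstream of Klf2 held 15 genes, from the kinases Map3k3, Map2k5 and Mapk7 to the MEF2 factors and Foxo1. Of these 7 had a log2 fold change above 0 and 8 below, with a median of -0.01 and 0 at an unadjusted p under 0.05 by edgeR. The list also holds genes that restrain the pathway (Krit1, Ccm2, Pdcd10, Hdac5 and Hdac7), so these counts and the median pool both directions of action. Mef2a, an activator that can bind the MEF2 motif printed above, averaged 116 ± 9.47 CPM in mutants against 103 ± 11.9 CPM in wt, and Mef2d 131 ± 5.55 against 136 ± 6.81 CPM (SD, n = 3 per group). Ccm2, part of the complex that restrains this pathway, was at 136 ± 22.1 and 156 ± 19.8 CPM, and Mef2b at 0.66 ± 0.422 and 0.315 ± 0.12 CPM. Of 16 cofactors and ubiquitin ligases of KLF proteins 9 were above 0 and 7 below, with a median of 0.10, 1 lower at an unadjusted p under 0.05 by edgeR (3.22% of all genes) and 1 lower by DESeq2 (0.469% of all genes). Smurf1, a ubiquitin ligase that targets KLF2 as well as SMADs, was at 6.77, 7.45 and 7.35 CPM in mutants and at 13.99, 16.4 and 10.8 CPM in wt. The groups did not overlap for Smurf1, edgeR's adjusted p was 0.345 and DESeq2 called it. The coactivator Ep300, at 89.4 ± 1.01 and 100.2 ± 4.22 CPM, also had mutants below wt without overlap. These were 2 of the 16 genes, beside 6.21% of all genes. The corepressor Sin3a was at 49.6 ± 3.90 and 58.7 ± 8.28 CPM.

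Of 9 genes that KLF2 is known to promote, 7 had a log2 fold change below 0 (49.3% of all genes), with a median of -0.14. None of the 9 passed by edgeR over all genes (2 were lower before adjustment, with p below 0.05, as were 3.22% of all genes), and none by DESeq2. The median ran from -0.16 to -0.08 when libraries were left out. The groups did not overlap, with mutants lower, for S1pr1, Thbd and Il6ra, 3 of the 9, beside 6.21% of all genes. S1pr1, the receptor for sphingosine 1-phosphate that KLF2 maintains in T cells, was at 85.7, 78.2 and 86.0 CPM in mutant replicates 1 to 3 and at 128, 104 and 104 CPM in wt replicates 1 to 3 (adjusted p = 0.46 by edgeR). Thbd, the anticoagulant thrombomodulin, was at 243 ± 8.10 and 291 ± 15.1 CPM, and Il6ra, a subunit of the IL-6 receptor, at 237 ± 0.997 and 261 ± 8.44 CPM (SD, n = 3 each). Thbd, S1pr1 and Nos3 are endothelial genes too, and Cav1 is on both this list and that of the 12 endothelial markers. The median log2 fold change of those markers was -0.13, so the lists are not separate observations. Of 14 genes that KLF2 is known to restrain 10 were above 0 (50.7% of all genes), with a median of 0.09, 0 called by edgeR or DESeq2, and by edgeR before adjustment (p below 0.05) 0 higher and 1 lower (3.51% and 3.22% of all genes). The median was 0.01 without wt replicate 1 and 0.22 without wt replicate 2. Tnf was at 46.1, 42.7 and 69.9 CPM in mutants and at 40.5, 48.9 and 28.3 CPM in wt, and the groups overlapped. Ptgs2, cyclooxygenase 2, was at 6009 ± 1049 and 5248 ± 380.0 CPM. Hif1a went the other way, at 108 ± 9.89 in mutants and 149.8 ± 20.5 CPM in wt. It was the 1 gene of this list with mutants below wt without overlap (6.21% of all genes). The 1 gene with mutants above wt without overlap (6.82%) was Ccl2, at 0.800 to 2.17 CPM in mutants and 0.727 to 0.755 CPM in wt.

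Klf10 and Klf11 were set beside a list of 12 genes tied to the early TGF-beta response, not all of which are known to be induced in every cell type. Of these 6 were above 0 and 6 below, with a median of 0.00, and 0 were called by edgeR (before adjustment, with p below 0.05, 2 higher and 2 lower, beside 3.51% and 3.22% of all genes), while DESeq2 called 1 higher and 1 lower (0.514% and 0.469%). The groups did not overlap for 2 with mutants above wt and 3 with mutants below, beside 6.82% and 6.21% of all genes. Tgif1, a transcriptional corepressor, was at 361, 317 and 378 CPM in mutants and at 247, 282 and 232 CPM in wt, higher in mutants without overlap, as Klf10 was. Pmepa1, a feedback inhibitor, was at 3.68, 6.78 and 6.12 CPM in mutants and at 2.43, 2.44 and 2.44 CPM in wt. Smad7, the inhibitory SMAD that KLF10 is known to repress, was at 10.7 to 14.5 CPM in mutants and 11.7 to 14.1 CPM in wt. The genes lower in mutants without overlap were Smurf1, given above (log2 fold change -0.93), Id1, a dominant-negative helix-loop-helix factor (-0.44), and Ski, a corepressor of SMADs (-0.24). Smurf1 was the gene DESeq2 called lower.

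Several KLF genes are immediate early genes that enzymatic tissue digestion can induce, so 21 such genes were read in the same libraries. Their sum was 47170 to 59730 CPM in mutants and 51670 to 57390 CPM in wt, which overlap. Of the 21, 14 were above 0 with a median of 0.07, 0 were called by edgeR (before adjustment, with p below 0.05, 4 higher and 2 lower, beside 3.51% and 3.22% of all genes) and 3 were higher by DESeq2 (0.514%). The groups did not overlap for 3 with mutants above wt and 3 with mutants below (6.82% and 6.21% of all genes). The EGR genes stood higher in mutants without overlap, Egr1 at 859, 914 and 807 CPM against 392, 516 and 572 CPM, Egr2 at 22.4 to 31.6 against 10.8 to 13.9 CPM and Egr3 at 5.25 to 9.47 against 1.69 to 2.54 CPM. The genes lower in mutants without overlap were Ier2 at 962 to 1072 against 1153 to 1251 CPM, Socs3, a feedback inhibitor of cytokine signalling, at 600.4 to 758 against 786 to 1124 CPM, and Jund, an AP-1 subunit, at 6.06 to 6.71 against 8.09 to 9.58 CPM. Fos, at 4528 to 6885 CPM in mutants and 5599.9 to 6140.3 CPM in wt, overlapped. The part of digestion in the KLF values was not tested.

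**Figure D5:**
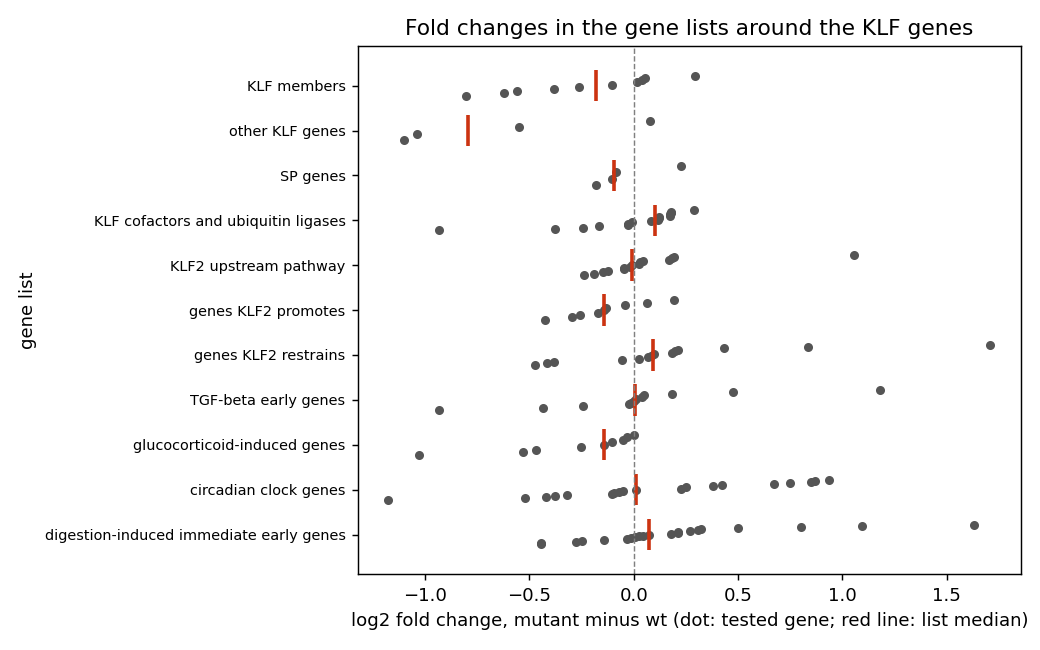
Log2 fold change of mutant against wt for every tested gene (dots) of the 11 lists, with each list's median (red line). The medians lie between -0.18 and 0.10 except for the 4 tested KLF genes outside the members, at -0.80.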

How the data were processed

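Per the labels' protocols, lungs were perfused, minced and digested with liberase, Ly6G-positive cells were sorted, and SMART-Seq v2 cDNA from 2 ng of RNA went into Nextera XT libraries read as paired ends. The authors deposited raw whole-number read counts per gene, and exon lengths are per the file headers. STAR, featureCounts and build GRCm38 are named in the submitters' processing notes; the sources used here give no versions, annotation release or strand setting. Symbols came from GENCODE M21 (55094 identifiers matched exactly, 300 without their version, 93 not).

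Genes were kept by edgeR's filterByExpr (minimum count 10), scaled by TMM and compared in edgeR 4.0.16 under R 4.3.3 by its quasi-likelihood test, all 6 libraries unpaired, with p adjusted by Benjamini and Hochberg over 15774 genes (threshold 5%). Standard errors are the fold change over the square root of F. The script was tested on simulated data. Reads have no molecular identifiers, so floors of 3 counts cover counting error only. Alternatives were other scalings, DESeq2 1.42.0, limma-voom (limma 3.58.1), other filters, another prior count and each library left out. The members and lists were chosen with earlier results of these data known. Named genes are all members, the 3 smallest p of each list and the 5 genes nearest to Klf2. Other genes named, such as Mef2d, Smad7, Id1, Ski, Ier2, Socs3, Jund, Fos, Klf5, Ccl2 and the markers, were chosen after their values were seen.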

Additional observations from a re-analysis of the deposited data

How the results depend on the processing

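Klf2, Klf3, Klf4, Klf6, Klf10, Klf11 and Klf13 kept the sign of their log2 fold change under every alternative run. Near 0, leaving out libraries moved Klf16 from -0.28 (without mutant replicate 1) to 0.20, Klf7 from -0.00095 (without wt replicate 1) to 0.093 and Klf9 from -0.32 (without mutant replicate 3) to 0.21, and limma-voom gave -0.039 for Klf9. DESeq2, no filter on low counts and a test of only the genes averaging 10 CPM or more each called 1 member lower, Klf2, with 0 by edgeR as reported. Over all genes these 3 settings called 81, 41 and 14 higher and 74, 29 and 4 lower, against 1 and 0, and leaving out libraries gave 0 to 1 in either direction. Medians of lists left their spread between replicates when libraries were left out: -0.073 to 0.24 for circadian clock genes, 0.076 to 0.22 for immediate early genes, -0.16 to -0.084 for genes KLF2 promotes (-0.12 among genes of at least 10 CPM), -0.25 to -0.10 for glucocorticoid-induced genes, -0.078 to 0.093 for KLF cofactors and -0.88 to -0.38 for the other KLF genes. The cause of these shifts was not tested. The order of members per length in wt was identical by TPM. No paired analysis was possible because the labels give no replicate numbers shared between groups. Members under 20 CPM rest on 102 to 871 counts a library.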

Other observations

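Klf9 and Klf15 are known glucocorticoid-induced genes, and the same libraries were read for 9 others of that kind. Of these 8 had a log2 fold change below 0 (49.3% of all tested genes), with a median of -0.14, 0 were called by edgeR (4 lower at an unadjusted p under 0.05, beside 3.22% of all genes) and 2 were lower by DESeq2 (0.469%). Fkbp5, a chaperone that dampens the glucocorticoid receptor, was at 23.7, 41.8 and 32.7 CPM in mutant replicates 1 to 3 and at 88.3, 61.2 and 50.7 CPM in wt replicates 1 to 3. Tsc22d3, the anti-inflammatory factor GILZ, was at 1549, 1463 and 1772 CPM in mutants and at 2521, 1959 and 2137 CPM in wt. Neither gene overlapped between groups. In all, 4 of the 9 genes had mutants below wt without overlap, beside 6.21% of all genes. The highest value of both Fkbp5 and Tsc22d3 fell in wt replicate 1, as it did for Klf2, Klf3, Klf4, Klf12, Klf13 and Klf15. The other members were highest elsewhere, Klf6 and Klf11 in wt replicate 3, Klf9 and Klf10 in mutant replicate 3, and Klf7 and Klf16 in mutant replicate 1. Ddit4, a stress-induced inhibitor of mTOR signalling, was at 11.1 to 15.5 CPM in mutants and 16.03 to 22.1 CPM in wt. Klf9 itself was level between groups.

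Klf9 and Klf10 are also known for circadian expression. Of 19 clock genes 10 were above 0 and 9 below, with a median of 0.01, 0 called by edgeR (2 lower at an unadjusted p under 0.05) and 1 lower by DESeq2, beside the same shares of all genes. The period gene Per2 was at 46.1, 56.3 and 60.1 CPM in mutants and at 74.1, 83.1 and 75.8 CPM in wt. Nfil3, a repressor in the clock's output, was at 335 ± 34.9 and 448 ± 55.4 CPM (SD, n = 3 each), and Bhlhe41, a repressor of clock genes, at 3.25 ± 0.675 and 1.70 ± 0.486 CPM. The sources used here do not give the time of day at which lungs were taken.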
